A study of Mus musculus with 22 samples.

Results

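Genes of axonal adhesion that act where axons, myelin and the node of Ranvier meet were followed through the hnRNP A1 footprints of mouse spinal cord. The 10 genes are the L1 family members *Nrcam*, *Nfasc*, *L1cam* and *Chl1*, the neural cell adhesion molecules *Ncam1* and *Ncam2*, the contactins *Cntn1* and *Cntn2*, and the contactin-associated proteins *Cntnap1* and *Cntnap2*. Every footprint that overlapped the annotated span of one of these 10 genes by at least 1 nt was taken, which gave 781 footprints of the 136207 in the 10 lists. All 10 genes had a footprint in at least 5 mice, among 13965 annotated genes with a footprint in any mouse.

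hnRNP A1 is an RNA-binding protein that regulates splicing, and CLIPseq recovers the RNA to which it was crosslinked by UV light in tissue. Each mouse gave 1 library from an anti-hnRNP A1 immunoprecipitation (antibody clone 9H10 in the sample labels, another clone in the study's methods) of its whole spinal cord. All mice were wild-type female C57Bl/6. Naïve_1, Naïve_2 and Naïve_3 were healthy. The other 7 mice had experimental autoimmune encephalomyelitis (EAE), a model of multiple sclerosis induced with the myelin peptide MOG(35-55), complete Freund's adjuvant and pertussis toxin, and were killed with the age-matched naïve mice 15 days after clinical onset. The age at immunization was 12 weeks in the treatment protocol and 8 weeks in the design text. Mild EAE mice were EAE_3 and EAE_4, both with a clinical score of 1.5, and EAE_7, with a score of 1.0. Severe EAE mice were EAE_1 and EAE_5, with a score of 2.5, and EAE_2 and EAE_6, with a score of 3.0.

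A footprint is a genome interval that remained after contigs of a mouse's reads were aligned and intervals present in its own input or in the pooled control IgG precipitation were taken away. The lists give no strand, score or read count, so a gene without a footprint is one where no interval was retained, and the depth behind each footprint is unknown. The naïve lists were of like length, with 17119 to 17494 footprints, and the mild EAE lists had 9751 to 24433. The severe EAE lists differed by far more, from 209 in EAE_2, 673 in EAE_6 and 2670 in EAE_1 to 31870 in EAE_5, the longest of all. Covered nucleotides of a gene are therefore given for every mouse, and the differences of EAE from naïve mice are given with and without EAE_5. In whole spinal cord, fewer cells of a type and less RNA per cell cannot be told apart.

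Myelinated axons are divided into nodes, where sodium channels cluster, paranodes, where loops of the myelinating glial cell attach, and juxtaparanodes, where potassium channels lie. At the paranode, contactin-1 (*Cntn1*) and Caspr (*Cntnap1*) on the axon form a complex that meets a glial isoform of neurofascin (*Nfasc*), while a neuronal isoform of neurofascin and NrCAM (*Nrcam*) sit at the node itself. Contactin-2, also called TAG-1 (*Cntn2*), and Caspr2 (*Cntnap2*) organize the juxtaparanode. *L1cam*, *Chl1*, *Ncam1* and *Ncam2* encode immunoglobulin-domain adhesion molecules that guide and bundle axons. Several of these transcripts, *Nfasc* and *Ncam1* among them, are known for alternative splicing.

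The 10 genes together had 20700, 11831 and 10741 covered nt in Naïve_1, Naïve_2 and Naïve_3. They had 5199, 5984 and 17483 covered nt in the mild EAE mice EAE_3, EAE_4 and EAE_7. In severe EAE they had 1090 nt in EAE_1, 0 in EAE_2, 28457 in EAE_5 and 293 in EAE_6. The highest value was thus in a severe EAE mouse and so was the lowest, and the groups overlapped. As a share of all covered nucleotides of a mouse, the 10 genes took 0.932%, 0.576% and 0.491% in naïve mice, 0.336%, 0.517% and 0.585% in mild EAE, and 0.330%, 0.687% and 0.386% in EAE_1, EAE_5 and EAE_6.

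The mean number of covered nt was lower in the 7 EAE mice than in the 3 naïve mice for each of the 10 genes, with differences from −53.0 nt (*Chl1*) to −4119 nt (*Cntnap2*), and none of these differences passed the test. Two-sided exact permutation tests gave p from 0.108 to 0.917 for the 10 genes, and adjusted p from 0.956 to 1 over the 13965 genes tested. The median difference over the 10 genes was −211 nt, against −11.6 nt over all genes tested. A difference in nt grows with how much of a gene is covered, and the genes were not matched for this. The medians therefore do not show a larger loss in the 10 genes than in others. The covered nt of a whole list also differed between mice, from 24359 in EAE_2 to 4140963 in EAE_5. No gene in the whole table had an adjusted p under 0.05 (Benjamini-Hochberg, exact permutation tests), while 416 genes and 0 of the 10 had an unadjusted p under 0.05. The smallest exact permutation p that 3 against 7 mice can give is 0.00833. Over 13965 genes, an adjusted p under 0.05 would need very many genes at that value. The adjusted p therefore cannot show that a gene did not differ. Of the 10 genes, 0 had every naïve mouse above every EAE mouse, a pattern seen in 0.96% of all genes tested, and 0 had every EAE mouse above every naïve mouse (0.00716%).

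The same held in the comparisons by severity. Against severe EAE, 0 of the 10 genes had every naïve mouse above (2.28% of all genes) and 0 every naïve mouse below (0.00716%), with exact permutation p from 0.171 to 0.971. The smallest exact permutation p possible in that comparison is 0.0286. Against mild EAE, 0 had every naïve mouse above (2.53%) and 0 every naïve mouse below (2.53%), with exact permutation p from 0.2 to 0.9, in a comparison of 3 mice with 3 that cannot give a p under 0.1.

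Without EAE_5 the values of severe EAE were far lower. The other 3 severe mice had 0 nt in 7 of the 10 genes, all except *Nrcam*, *Nfasc* and *Cntnap2*, and 8 of the 10 genes, all except *L1cam* and *Chl1*, then had every naïve mouse above every severe mouse. This was so for 20.3% of the 10159 genes footprinted in these 6 mice. Among the 2324 genes with a footprint in all 3 naïve mice, which held the same 8 members, it was so for 88.9%, and the exact permutation p of each of the 8 was 0.1, the smallest that 3 mice against 3 can give. The count of members was thus close to the share among all genes footprinted in each naïve mouse, beside the short lists of EAE_1, EAE_2 and EAE_6.

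**Figure D1:**
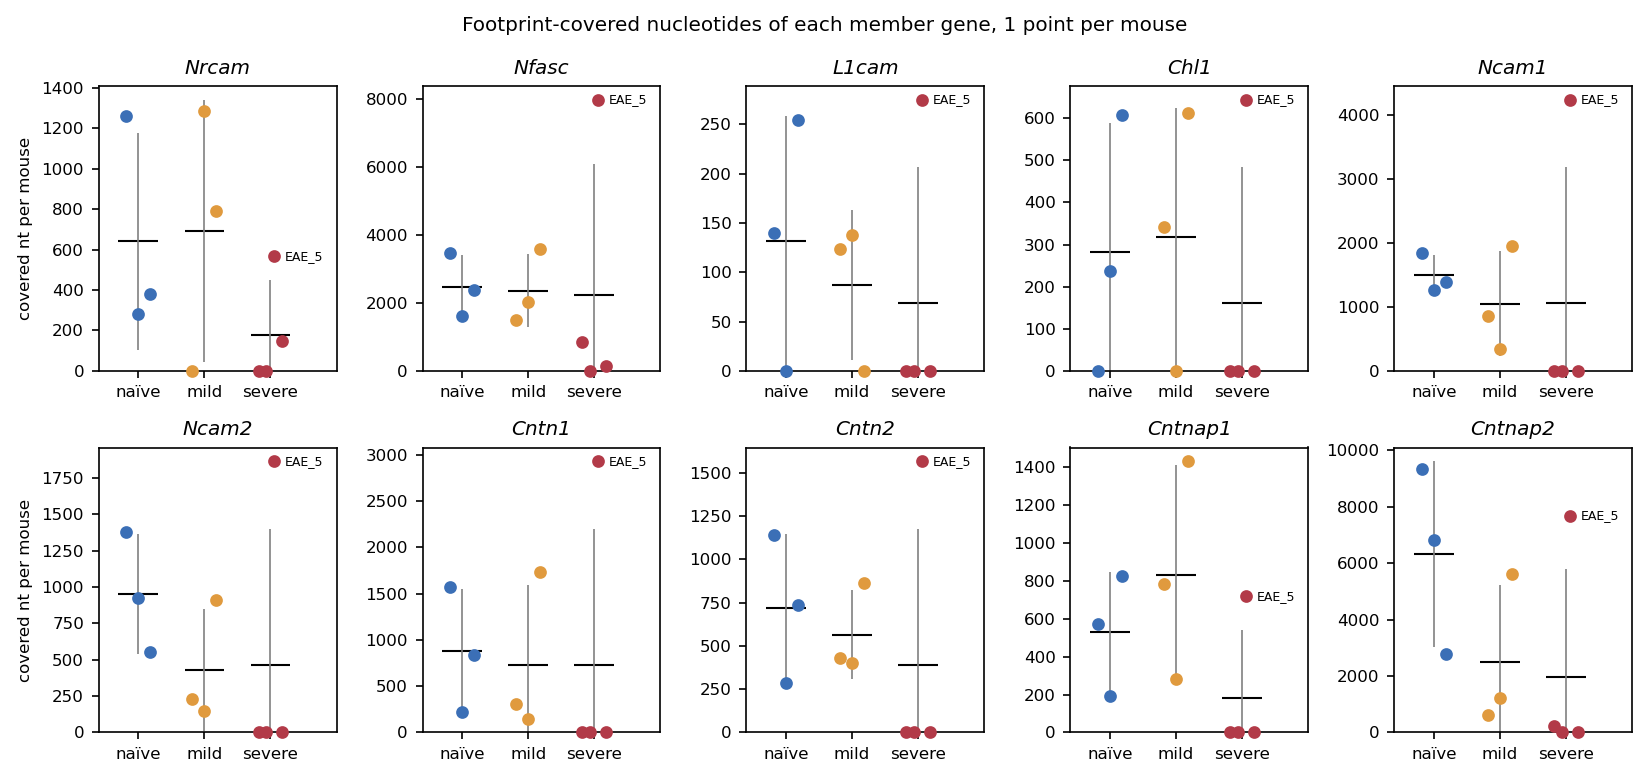
Covered nucleotides of each of the 10 genes (y axis, nt, each panel with its own scale from 0) in naïve, mild EAE and severe EAE mice, 1 point per mouse. The black line is the group mean and the grey line 1 SD to each side, drawn no lower than 0. EAE_5 lies above the other severe mice in every panel, and the naïve and mild EAE points overlap in every panel.

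*Nfasc*, which encodes neurofascin (ENSMUSG00000026442, GRCm38 chromosome 1, 132564690 to 132741797, minus strand), had footprints in 9 of the 10 mice, the most of the 10 genes. It had 3457, 1602 and 2368 covered nt in the naïve mice, 1506, 2011 and 3568 in EAE_3, EAE_4 and EAE_7, and 862, 0, 7969 and 143 in EAE_1, EAE_2, EAE_5 and EAE_6. The naïve and mild EAE ranges were almost the same, and the mean of mild EAE differed from the naïve mean of 2476 ± 932 nt (SD, n = 3) by −114 nt (exact permutation p = 0.9). Over all 7 EAE mice the difference was −182 nt, and −1127 nt without EAE_5 (exact permutation p = 0.917 and 0.238). By covered nt *Nfasc* ranked 75th of 4912 footprinted genes in Naïve_1, 17th of 1512 in EAE_1, 22nd of 8298 in EAE_5 and 226th of 549 in EAE_6. Of its 177 footprints, 79 were in coding exons, 67 in introns, 23 in the 3′ UTR and 8 in the 5′ UTR.

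Although the total of *Nfasc* was alike in naïve mice and mild EAE, its exons were covered in different places. Along the longest coding transcript, which has 32 exons, the mild EAE mice had more covered nt upstream of exon 12 than downstream of it. Exons 6, 8, 10 and 11 were covered in all 3 mild EAE mice, and in 1, 2, 1 and 2 naïve mice. Over exons 12 to 21 the order turned. Exon 15, 148 nt long, was covered by 148, 66 and 142 nt in Naïve_1, Naïve_2 and Naïve_3 and by 0 nt in each of the 7 EAE mice, EAE_5 included. Exons 16, 19 and 20 were each covered in 2 naïve mice and in 0 EAE mice. Exon 21 was covered by 47, 45 and 72 nt in the naïve mice and, in another stretch of the exon, by 91 nt in EAE_5, and by 0 nt in the other 6 EAE mice.

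Summed over exons 12 to 21, the naïve mice had 618, 571 and 548 covered nt of 1335. EAE_3, EAE_4 and EAE_7 had 239, 0 and 138 nt, and EAE_1, EAE_2, EAE_5 and EAE_6 had 0, 0, 511 and 0 nt. Every naïve mouse thus lay above every EAE mouse in these exons, EAE_5 only slightly below the lowest naïve mouse. Over exons 2 to 11, which span 1334 nt, the naïve mice had 367, 203 and 165 nt, below the 584, 468 and 951 nt of the 3 mild EAE mice. The severe mice had 210, 0, 696 and 35 nt there, on both sides of the naïve values. Over exons 22 to 32, which span 1950 nt, the naïve mice had 412, 139 and 0 nt and the mild EAE mice 280, 135 and 486 nt. The severe mice had 0, 0, 783 and 0 nt in exons 22 to 32, and the groups overlapped. These exon blocks were drawn around the values shown, so no test was made of them.

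**Figure D2:**
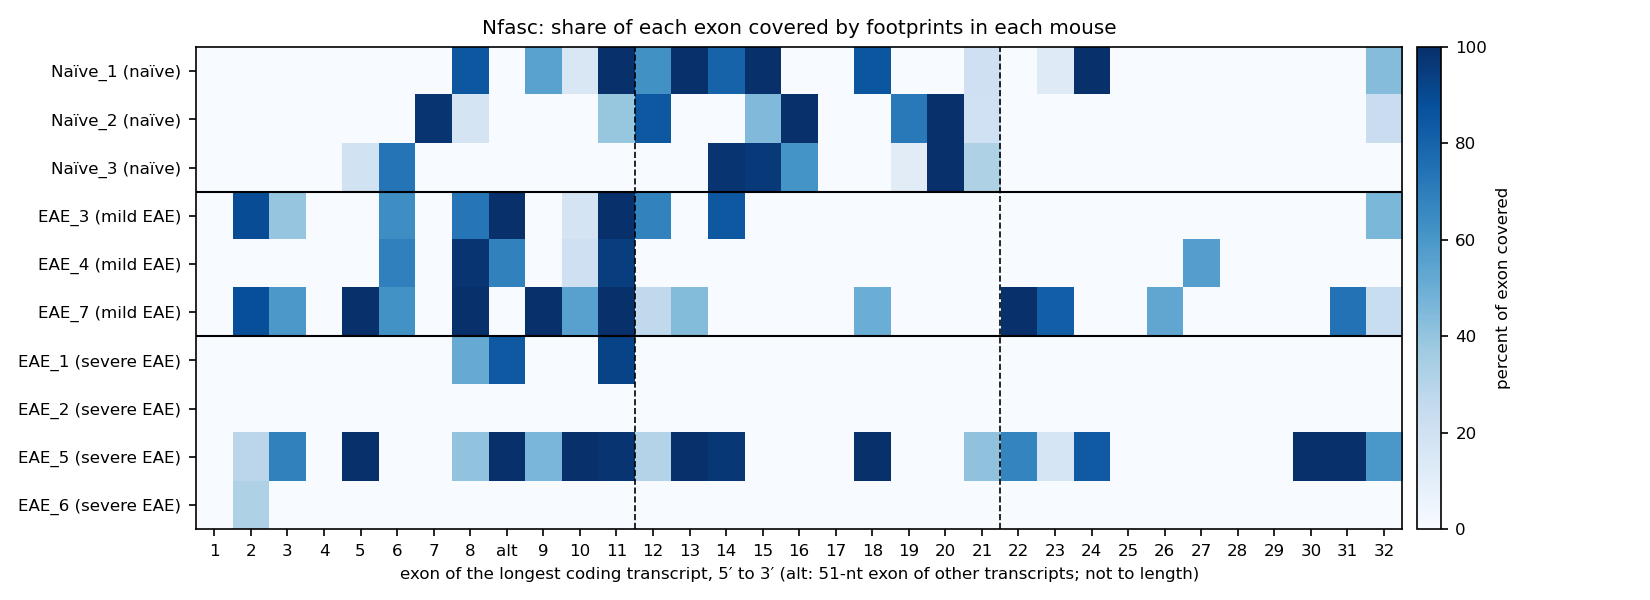
Percent of each *Nfasc* exon covered by footprints (color scale, 0 to 100%) in each of the 10 mice (rows), with exons of the longest coding transcript in order from 5′ to 3′ (columns, not to length) and dashed lines around exons 12 to 21. Of exons 12 to 21, exons 15, 16, 19 and 20 are covered in naïve mice alone, and the 51-nt exon marked alt in 4 EAE mice alone.

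The *Nfasc* stretches covered in all 3 naïve mice and in no EAE mouse are shown on the minus (gene) strand in GRCm38, with any UAG, read as TAG, in capitals. UAG is the core of the sequence that hnRNP A1 is known to bind. The stretch in exon 15 lies at chr1:132609757-132609898 and that in exon 21 at chr1:132602147-132602193, both as shared by at least 2 naïve mice, and both in exons that all 6 coding transcripts contain.
Nfasc exon 15: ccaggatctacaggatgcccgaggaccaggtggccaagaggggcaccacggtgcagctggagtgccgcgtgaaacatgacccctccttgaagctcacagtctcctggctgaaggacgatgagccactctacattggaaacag
Nfasc exon 21: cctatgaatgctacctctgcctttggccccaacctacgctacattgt
Neither holds a UAG, and both have one end at an exon end.

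The coding stretches with the widest sharing were exon 11, at chr1:132619389-132619520, and exon 8, at chr1:132631685-132631852, each footprinted in 7 mice (Naïve_1, Naïve_2, the 3 mild EAE mice, EAE_1 and EAE_5). Parts of both were also shared by EAE_1 and EAE_5, as 2 of the 4 member stretches that severe EAE mice had in common. Exon 6, at chr1:132634677-132634812, is shown beside them because it was covered in all 3 mild EAE mice and in Naïve_3 alone of the others.
Nfasc exon 11: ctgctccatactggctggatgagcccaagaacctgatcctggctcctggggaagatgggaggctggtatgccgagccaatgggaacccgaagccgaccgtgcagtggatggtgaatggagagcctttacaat
Nfasc exon 8: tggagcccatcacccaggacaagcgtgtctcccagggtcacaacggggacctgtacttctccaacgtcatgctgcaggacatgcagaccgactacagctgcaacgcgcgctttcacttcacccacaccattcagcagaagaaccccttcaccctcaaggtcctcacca
Nfasc exon 6: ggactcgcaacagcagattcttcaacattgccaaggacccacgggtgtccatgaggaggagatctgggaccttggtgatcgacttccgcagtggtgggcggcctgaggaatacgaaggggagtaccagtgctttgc
The stretch in exon 11 is the whole exon, and no UAG occurs in any of these 3 sequences.

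*Nfasc* also has a 51-nt coding exon, at 132627872 to 132627922, that only 2 of its 6 coding transcripts contain and that the longest one lacks. It was covered by 51 nt in EAE_3, 35 nt in EAE_4, 43 nt in EAE_1 and 51 nt in EAE_5, and by 0 nt in the 3 naïve mice and the other 3 EAE mice. Of the other coding exons found in only 2 coding transcripts, exons 4, 28 and 29 had no footprint in any mouse and exon 27 had 1, of 135 nt in EAE_4. Exon 2, in the 5′ UTR, was covered by 97 nt in EAE_3, 96 in EAE_7, 31 in EAE_5 and 35 in EAE_6, and by 0 nt in the naïve mice and the other 3 EAE mice. How often exons of all genes were covered in EAE mice alone, or in naïve mice alone, was not counted, and splicing was not tested.

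Introns of *Nfasc* were footprinted too. A stretch of 388 nt, at chr1:132613791-132614178 and 2118 nt from the nearest exon, was covered in parts in all 3 naïve mice and in EAE_4, EAE_7 and EAE_5. Its part shared by EAE_4 and EAE_7, at chr1:132613969-132614156, is printed because the region around it was the intronic one footprinted in the most mice, 6. The footprint of Naïve_2 ended at 132613984 and reached only one end of the printed part, which the other mice named covered whole. Beside it is the UAG-rich stretch of Naïve_1, Naïve_3 and EAE_5 at chr1:132599257-132599395, 440 nt from an exon.
Nfasc intron, 6 mice: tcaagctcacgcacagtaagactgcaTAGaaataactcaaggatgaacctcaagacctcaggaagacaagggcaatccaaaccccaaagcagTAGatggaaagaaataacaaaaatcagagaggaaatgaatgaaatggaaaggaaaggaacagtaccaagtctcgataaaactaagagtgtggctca
Nfasc intron, 3 mice: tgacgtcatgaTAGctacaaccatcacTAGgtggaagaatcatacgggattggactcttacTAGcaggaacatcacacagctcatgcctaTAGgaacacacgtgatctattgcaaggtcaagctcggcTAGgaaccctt
The first holds 2 UAG and the second 5, of which 3 are followed by G.

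*Nrcam*, which encodes the nodal partner of neurofascin on axons, had 1259, 281 and 382 covered nt in the naïve mice, 0, 1287 and 792 nt in EAE_3, EAE_4 and EAE_7, and 0, 0, 567 and 150 nt in EAE_1, EAE_2, EAE_5 and EAE_6. Naïve_1 and EAE_4 stood highest, and the mean difference of EAE from naïve mice was −241 nt (exact permutation p = 0.517), and −269 nt without EAE_5. In EAE_4, 994 of the 1287 nt came from 1 intronic footprint. The mean of *Nrcam* was 693 nt in mild EAE and 641 nt in naïve mice, and this order rested on that footprint. Of its 37 footprints, 22 were in coding exons and 12 in introns. No stretch of *Nrcam* was shared by mild EAE mice or by severe EAE mice.

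*L1cam*, which encodes the founding member of the family, had 140, 0 and 254 nt in the naïve mice, 124, 138 and 0 nt in the mild EAE mice, and 275 nt in EAE_5 as its only severe EAE signal. All of its 12 footprints had their midpoint in a coding exon. Naïve_1 and Naïve_3 shared 2 of them, in exons 7 and 8 of the longest coding transcript (chromosome X, 73864159 to 73864232 and 73863216 to 73863268), and no EAE mouse had a footprint there. *Chl1*, which encodes a close homolog of L1, had 0, 237 and 607 nt in the naïve mice, 342, 0 and 612 nt in mild EAE, and 644 nt in EAE_5 alone of the severe mice. All 4 of its naïve footprints were intronic, while 12 of its 15 EAE footprints were in coding exons, 8 of them in EAE_5. Without EAE_5, 4 of 7 EAE footprints of *Chl1* were in coding exons and 2 in introns. With 12 and 19 footprints in all, these were the genes with the fewest footprints, and their groups overlapped. The EAE differences were −54.6 nt for *L1cam* and −53.0 nt for *Chl1*, and −87.7 and −122 nt without EAE_5.

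*Ncam1*, the gene of the neural cell adhesion molecule NCAM, had 1843, 1270 and 1392 nt in the naïve mice, the narrowest naïve range of the members relative to its mean of 1502 ± 302 nt (SD, n = 3). It had 858, 338 and 1945 nt in EAE_3, EAE_4 and EAE_7, 4236 nt in EAE_5 and 0 nt in the other 3 severe mice, so 5 of the 7 EAE mice lay below the lowest naïve mouse and 2 above the highest (difference −448 nt, exact permutation p = 0.667). Without EAE_5 the difference was −978 nt (exact permutation p = 0.107). Its exons and introns were covered unlike each other. Per 100000 nt of intron, *Ncam1* had 411, 376 and 247 covered nt in the naïve mice and 107, 50.0 and 206 in mild EAE, so every mild EAE mouse was lower. Per 1000 nt of exon, it had 76.2, 21.5 and 78.6 in the naïve mice and 63.6, 22.4 and 156 in mild EAE, and the groups overlapped. EAE_5 had 718 per 100000 intron nt and 250 per 1000 exon nt, above all naïve and mild EAE mice in both. These densities were split by annotation after the totals were seen and were not tested.

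The intronic stretch of *Ncam1* at chr9:49637587-49637725, 3865 nt from the nearest exon, was footprinted in Naïve_1, Naïve_3, EAE_4, EAE_7 and EAE_5 and is shown for its UAG content, on the minus (gene) strand.
Ncam1 intron: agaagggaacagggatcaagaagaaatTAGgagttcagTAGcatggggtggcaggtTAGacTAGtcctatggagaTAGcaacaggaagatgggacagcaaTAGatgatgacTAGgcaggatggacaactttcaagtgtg
It holds 7 UAG in 139 nt, one of them within UUAGG. Naïve_1 and Naïve_3 also shared 57 nt of exon 4 (chromosome 9, 49565469 to 49565525), which EAE_4 and EAE_5 covered whole and EAE_3 in part.

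*Ncam2*, the second gene of the pair, had 1376, 923 and 554 nt in the naïve mice, 233, 147 and 909 nt in EAE_3, EAE_4 and EAE_7, and 1866 nt in EAE_5 and 0 nt in the other 3 severe mice. The same 5 EAE mice as for *Ncam1* lay below the naïve range, and the difference of the means was −500 nt (exact permutation p = 0.275). Without EAE_5 it was −736 nt (exact permutation p = 0.0238, unadjusted). Of its 46 footprints, 33 were intronic.

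*Cntn1*, the gene of the paranodal contactin, had 1569, 225 and 832 nt in the naïve mice, 310, 149 and 1729 nt in EAE_3, EAE_4 and EAE_7, 2933 nt in EAE_5 and 0 nt in the other 3 severe mice. The mean difference of EAE was −144 nt (exact permutation p = 0.875), and −511 nt without EAE_5 (exact permutation p = 0.369). The classes of its footprints were summed over mice, and few mice supplied most of them. Of the EAE footprints, 27 came from EAE_5 and 20 from EAE_7, and Naïve_2 had 2. A difference between groups of mice was not tested. Of 22 footprints in naïve mice, 13 were intronic and 7 in coding exons, and of 53 in EAE mice, 11 were intronic and 38 in coding exons (2 and 21 of 26 without EAE_5). Per 100000 nt of intron it had 409, 80.0 and 156 covered nt in the naïve mice and 0, 0 and 97.7 in mild EAE, with 451 in EAE_5, so the groups overlapped. Mild EAE mice shared 4 stretches, all in coding exons (3, 4, 16 and 17 of 24), each also footprinted in EAE_5 and in no naïve mouse. The longest of these, in exon 4 at chr15:92228623-92228742 on the plus strand, is shown.
Cntn1 exon 4: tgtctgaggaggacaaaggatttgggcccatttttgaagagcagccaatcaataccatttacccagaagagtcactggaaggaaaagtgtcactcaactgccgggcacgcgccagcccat
It was footprinted in EAE_4, EAE_7 and EAE_5. The only stretch that naïve mice shared in *Cntn1* was intronic, 16808 nt from the nearest exon.

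*Cntn2*, the gene of the juxtaparanodal contactin, had 1139, 285 and 737 nt in the naïve mice, 432, 399 and 861 nt in mild EAE, 1567 nt in EAE_5 and 0 nt in the other 3 severe mice, with a mean difference of −255 nt in EAE (exact permutation p = 0.492) and −438 nt without EAE_5 (exact permutation p = 0.167). Its mild EAE values all lay within the naïve range. Of its 54 footprints, 43 were in coding exons, 8 in the 3′ UTR and 3 in introns, the last all in naïve mice. Exons 19 and 20 were each covered in all 3 naïve mice and in EAE_3, EAE_7 and EAE_5. Their shared naïve stretches, at chr1:132518297-132518347 and chr1:132516999-132517087, are printed on the minus (gene) strand.
Cntn2 exon 19: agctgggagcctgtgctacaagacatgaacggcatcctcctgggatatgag
Cntn2 exon 20: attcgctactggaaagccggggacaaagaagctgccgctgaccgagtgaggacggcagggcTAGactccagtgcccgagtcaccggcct
One UAG is present, in exon 20.

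*Cntnap1*, the gene of Caspr, the axonal partner of contactin-1, had 573, 192 and 824 nt in the naïve mice, 783, 284 and 1432 nt in EAE_3, EAE_4 and EAE_7, 719 nt in EAE_5 and 0 nt in the other 3 severe mice. It was one of 3 members, with *Nrcam* and *Chl1*, whose mean was higher in mild EAE than in naïve mice, by 303 nt (exact permutation p = 0.5), and the groups overlapped. Over all EAE mice its difference was −70.0 nt, and −113 nt without EAE_5. All but 1 of its 54 footprints had their midpoint in a coding exon and none in an intron, although introns make up most of the span. Per 1000 nt of exon it had the highest mean of the members in naïve mice, 87.8 ± 50.9 (SD, n = 3), close to *Nfasc* with 85.1 ± 13.0, and in mild EAE, 135 ± 87.5 against 97.0 ± 42.3 in *Nfasc*, and neither difference exceeds the spread. Part of the antisense neighbors *Plekhh3* and *Ccr10* overlaps its span, and the lists hold no strand.

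Exons 12 and 13 of *Cntnap1* were covered in all 3 naïve mice, all 3 mild EAE mice and EAE_5, at chr11:101182469-101182552 and chr11:101182883-101182938 on the plus strand, the only member positions footprinted in both of these groups whole. Exon 5, at chr11:101178308-101178439, was covered in the 3 mild EAE mice and in Naïve_1.
Cntnap1 exon 12: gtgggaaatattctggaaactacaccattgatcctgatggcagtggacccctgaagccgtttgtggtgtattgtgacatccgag
Cntnap1 exon 13: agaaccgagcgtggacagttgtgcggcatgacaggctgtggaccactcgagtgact
Cntnap1 exon 5: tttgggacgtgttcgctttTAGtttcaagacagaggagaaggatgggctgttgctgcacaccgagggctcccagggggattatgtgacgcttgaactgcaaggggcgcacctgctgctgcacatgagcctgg
One UAG occurs in these 3 sequences, in exon 5.

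*Cntnap2*, the gene of Caspr2, which clusters potassium channels at the juxtaparanode, had the most covered nt of the members, in the longest span (2244857 nt, chromosome 6, 45059357 to 47304213). It had 9344, 6816 and 2791 nt in Naïve_1, Naïve_2 and Naïve_3, 611, 1231 and 5635 nt in EAE_3, EAE_4 and EAE_7, and 228, 0, 7681 and 0 nt in EAE_1, EAE_2, EAE_5 and EAE_6. Of the 7 EAE mice, 5 lay below the lowest naïve mouse and none above the highest. EAE_7 and EAE_5, the mice with the longest lists, lay within the naïve range. The difference of the means was −4119 nt and did not pass the test (exact permutation p = 0.108, adjusted p = 0.956 over all genes). As covered nt per 100000 covered nt of the mouse, the difference was −209 (exact permutation p = 0.025, unadjusted), and without EAE_5, in nt, −5033 (exact permutation p = 0.0238, unadjusted). The totals include 1 intronic region of 2690 nt, at 45749774 to 45752463, footprinted in Naïve_1, Naïve_2 and EAE_7. The longest footprint of Naïve_2 was also 2690 nt, so a large part of its 6816 nt lay in that region.

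Of the 214 footprints in *Cntnap2*, 205 were intronic. Intron 1 of the transcript with the longest coding sequence held 133 of these, or 64.9%, and 26.6% of the intron length, and intron 13 held 26, or 12.7%, close to its 12.3% of the length. Intron 1 held 42, 18 and 12 footprints in the naïve mice, 3, 4 and 20 in EAE_3, EAE_4 and EAE_7, and 2, 0, 32 and 0 in the severe mice. All 8 footprints in coding exons came from the mice with the longest lists, 5 from EAE_5 and 3 from EAE_7. The other EAE mice, like the naïve mice, had none. Per 100000 nt of intron, *Cntnap2* had 412, 305 and 125 covered nt in the naïve mice, within the range of the other long members, since *Nfasc* had a naïve mean of 780 ± 459, *Ncam1* 345 ± 86.4 and *Ncam2* 189 ± 51.3 against 280 ± 145 in *Cntnap2* (SD, n = 3 each).

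**Figure D3:**
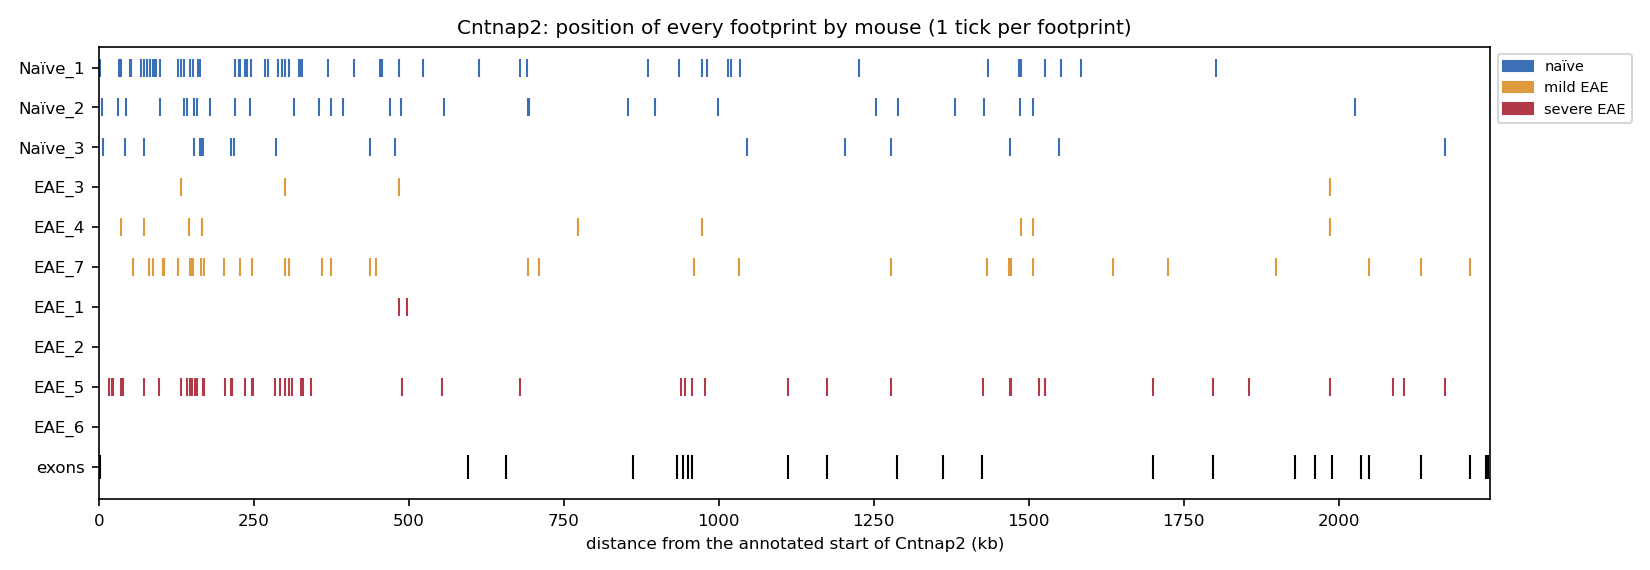
Position of each of the 214 *Cntnap2* footprints (x axis, kb from the annotated start of the gene) in the 10 mice (rows), 1 tick per footprint, with the exons of the transcript with the longest coding sequence as black ticks at the bottom. Ticks crowd in intron 1, which holds 133 of the 205 intronic footprints, in naïve mice, EAE_7 and EAE_5.

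Pairs of naïve mice shared 7 intronic stretches of *Cntnap2*, of which 6 had no footprint in any EAE mouse, and mild EAE mice shared 2 others. For stretches shared by 2 mice, here as in *Nfasc*, *L1cam* and *Cntn1*, the share over all genes without a footprint in the other group was not counted. The lists of EAE_1, EAE_2 and EAE_6 were short. Of the naïve stretches, 2 are shown on the plus strand, the most UAG-rich one in intron 1, at chr6:45278794-45278883, 218408 nt from the nearest exon, and one far downstream, at chr6:46544758-46544873. Both were shared by Naïve_1 and Naïve_2.
Cntnap2 intron 1: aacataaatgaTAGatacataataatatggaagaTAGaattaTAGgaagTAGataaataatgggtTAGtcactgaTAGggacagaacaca
Cntnap2 downstream intron: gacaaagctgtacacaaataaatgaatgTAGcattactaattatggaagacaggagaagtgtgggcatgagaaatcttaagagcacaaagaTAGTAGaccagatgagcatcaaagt
They hold 6 UAG in 90 nt and 3 UAG in 116 nt.

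Across the 10 genes, 335 footprints were in coding exons, 14 in 5′ UTRs, 40 in 3′ UTRs, 3 in other exons and 389 (49.8%) in introns. The intronic share was 63.0%, 75% and 47.5% in Naïve_1, Naïve_2 and Naïve_3, and 19.1%, 51.2% and 36.7% in EAE_3, EAE_4 and EAE_7. EAE_1 had 4 of 9 footprints in introns, EAE_5 had 106 of 218 (48.6%), EAE_6 0 of 3, and EAE_2 no footprint in these genes. EAE_4 and EAE_5 lay above Naïve_3, so naïve and EAE mice overlapped. *Cntnap2* supplied 205 of the 389 intronic footprints. Without it, the share was 41%, 57.1% and 32.3% in the naïve mice, 11.6%, 38.2% and 18.9% in mild EAE and 35.2% in EAE_5. Over footprints in a single protein-coding gene of any name, it was 40.7%, 44.0% and 29.0% in the naïve mice and 12.3%, 25.6% and 19.7% in mild EAE, with 19.7%, 38.6%, 22.7% and 30.1% in EAE_1, EAE_2, EAE_5 and EAE_6. Every mild EAE mouse was thus below every naïve mouse over all genes, while EAE_2 and EAE_6, with the shortest lists, were above Naïve_3. With footprints summed over the mice, the intronic share of naïve against EAE footprints was 59.1% and 20.8% in *Cntn1* and 57.1% and 32.8% in *Ncam1*. In *Nfasc* it was 35.1% and 39.2%. These sums weight the mice with long lists most and were not tested. Without EAE_5 the EAE share was 7.69% in *Cntn1*, 22.2% in *Ncam1* and 31.8% in *Nfasc*, so the direction in *Nfasc* rested on EAE_5.

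**Figure D4:**
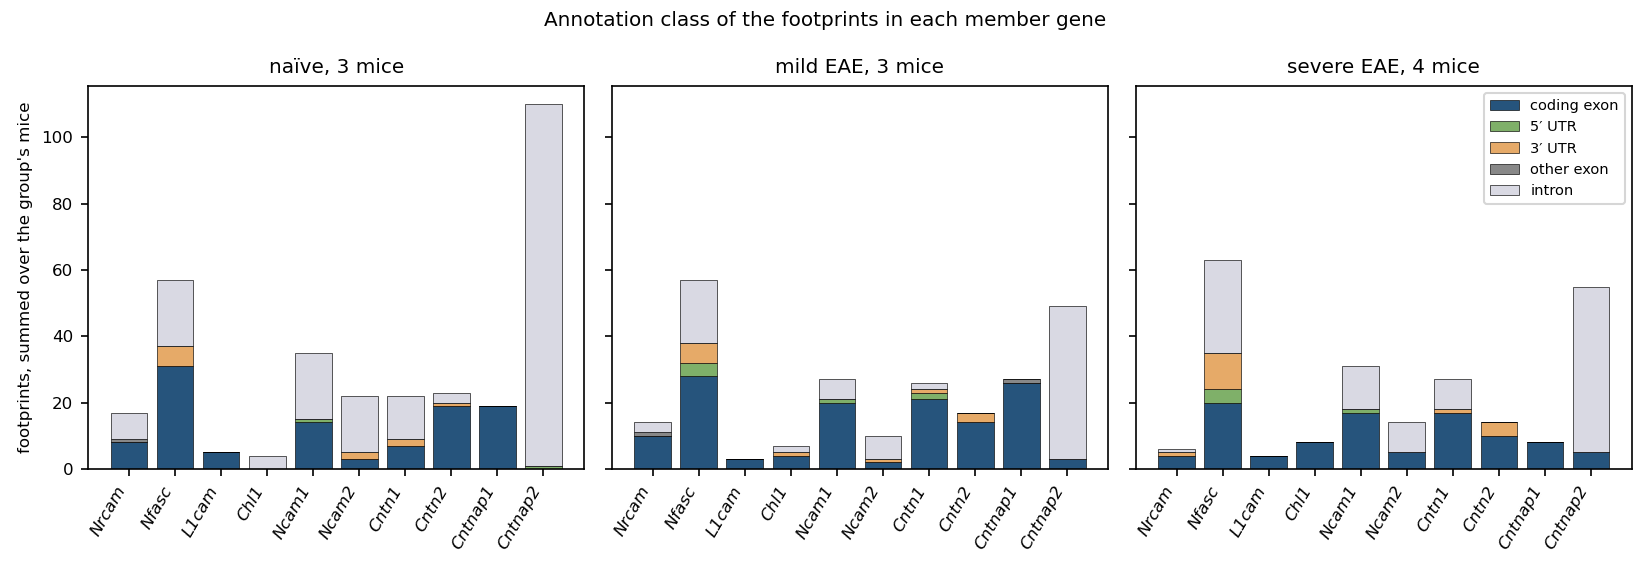
Number of footprints in each of the 10 genes by annotation class (stacked bars, y axis from 0), summed over the 3 naïve, 3 mild EAE and 4 severe EAE mice. *Cntnap2* is almost wholly intronic and *Cntnap1* almost wholly coding in all 3 panels, and most of the severe EAE bars come from EAE_5.

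Exonic footprints of the members kept to exon borders. Of 392 with their midpoint in an exon, 258 had one end exactly at an annotated exon end, 49 spanned exactly 1 whole exon, 63 lay inside an exon and 22 crossed an exon end. Among those in a single protein-coding gene, 78.5% of the members' exonic footprints had an end at an exon end, and 75.1% of those of all such genes. The members therefore did not stand apart from other genes in this.

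UAG was counted on the strand of the gene, with overlapping occurrences allowed, and AGGU likewise. For the naïve, mild EAE and severe EAE groups, members' intronic footprints held 17.7, 20.1 and 19.9 UAG per 1000 nt, and their coding footprints 3.90, 3.79 and 4.89. The corresponding values over all protein-coding genes were 20.7, 24.7 and 20.9 in introns and 5.29, 5.40 and 5.49 in coding exons. In-frame UAG is a stop codon and is absent from the reading frame of coding exons. The members were thus slightly below all genes in each class and group, and the split between introns and coding exons was wider than any between groups. At least 1 UAG was present in 87.7% of the members' 389 intronic footprints and in 31.0% of their 335 coding footprints, against 83.6% and 35.2% over all protein-coding genes. AGGU occurred 4.09 times per 1000 nt in the members' intronic footprints and 2.46 times in the coding ones. Of the 230 severe EAE footprints of the members, 218 came from EAE_5. Footprints come without strand, and these densities describe the sequence covered, not a binding site.

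**Figure D5:**
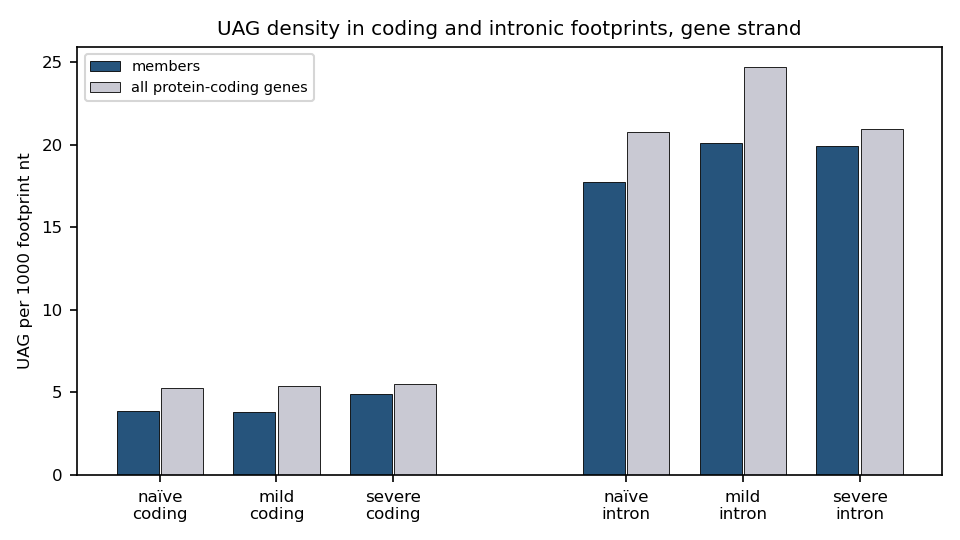
UAG per 1000 nt of footprint (y axis from 0) on the strand of the gene, for coding and intronic footprints of naïve, mild EAE and severe EAE mice, in the 10 genes and in all protein-coding genes. Intronic bars stand at 17.7 or higher and coding bars at 5.49 or lower, for members and all genes alike.

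Stretches covered in at least 2 mice of a group numbered 34 in naïve mice (3030 nt), 32 in mild EAE (2894 nt) and 4 in severe EAE (364 nt). *Nfasc* held the most in each group, with 13, 11 and all 4. *Cntnap2* followed in naïve mice with 7, and *Ncam1* in mild EAE with 7 against 3 in naïve mice. *Cntnap1* had 2 in naïve mice and 5 in mild EAE, *Cntn1* 1 and 4, and *Cntn2* 3 and 2. *Nrcam* and *L1cam* had 2 each in naïve mice and none within mild EAE or within severe EAE. Sharing between a mild and a severe EAE mouse was not counted. All 4 severe EAE stretches were shared by EAE_1 and EAE_5. By class, 20 of the naïve stretches were coding and 13 intronic, and 24 of the mild EAE stretches were coding and 5 intronic. Of the 13 intronic naïve stretches 11 held a UAG, and of the 20 coding ones 4.

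All 3 naïve mice at once covered 7 stretches of the members, of which 2, both in *Nfasc* (exons 15 and 21), had no footprint in any EAE mouse. In all genes there were 1127 such stretches, and 218 of them (19.3%) had none. All 3 mild EAE mice at once covered 7 stretches of the members, 4 in *Nfasc* and 3 in *Cntnap1*, and all 7 had a footprint in a naïve mouse. Over all genes, 630 of 1891 such stretches (33.3%) had none in naïve mice.

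Other genes of the same structures were read from the same lists. Of 9 other contactins and contactin-associated proteins, 8 had a footprint and 0 had groups that did not overlap between naïve and EAE mice, with a median difference of −169 nt. No gene of the whole table had an adjusted p under 0.05. An unadjusted exact permutation p under 0.05 was seen in 2 of them, against 0 of the 10 members and 416 of the 13965 genes tested. The most covered, *Cntn5*, had 2770, 1574 and 761 nt in naïve mice, 0, 133 and 518 in mild EAE and 414, 0, 1399 and 0 in EAE_1, EAE_2, EAE_5 and EAE_6 (exact permutation p = 0.0167, unadjusted), and *Cntnap5a* came next with 225 to 385 nt in naïve mice and 0 to 758 nt in EAE. All 18 other nodal and juxtaparanodal genes were footprinted, 0 without overlap, with a median of −149 nt and such a p in 1. The scaffold genes *Ank2*, with 4301 to 5851 nt in naïve mice and 0 to 11503 nt in EAE, and *Ank3*, with 1874 to 5476 and 0 to 5945 nt, led this list.

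Of 9 glial and matrix partners, 8 were footprinted and 0 lacked overlap, with a median of −143 nt and such a p in 1. *Nrg1*, an axonal signal to myelinating glia, had 8523, 3930 and 4598 nt in naïve mice, 856, 881 and 2937 in mild EAE and 168, 0, 5258 and 0 in severe EAE (exact permutation p = 0.025, unadjusted). *Bcan*, a matrix proteoglycan, had 754 to 1648 and 0 to 1307 nt. Of 15 other immunoglobulin adhesion genes, all were footprinted, with a median of −887 nt. An unadjusted exact permutation p was under 0.05 in 4, against 416 of the 13965 genes tested, and no adjusted p was under 0.05. Against 0.96% of all genes tested, 1 of the 15 had every naïve mouse above every EAE mouse. This was *Dscaml1*, a cell adhesion molecule of neurons, with 727, 1761 and 877 nt in naïve mice, 134, 124 and 561 in mild EAE and 0, 0, 158 and 0 in severe EAE (exact permutation p = 0.00833, the smallest that 3 against 7 mice can give). The most covered of them, *Lsamp* and *Ntm*, had 10815 to 29425 and 3581 to 7117 nt in naïve mice, and 0 to 24889 and 0 to 5106 nt in EAE.

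Markers of the cells that make these proteins, and of cells that enter the cord, were examined likewise. Of 10 neuron markers, 9 had a footprint, all but *Chat*, with 4117 to 7463 summed nt in naïve mice, 3026 to 4899 in mild EAE and 0 to 11959 in severe EAE. All 10 oligodendrocyte markers had one, with 2315 to 7778, 2791 to 7640 and 154 to 13309 nt, and so did all 8 astrocyte markers, with 1295 to 4118, 2703 to 6230 and 0 to 10376 nt. Of 12 microglia and leukocyte markers, 1 was footprinted in naïve mice (172 to 309 nt) and 7 in mild EAE (772 to 2627 nt), with 0 to 4270 nt in severe EAE and *Cd3e*, *Cd4*, *Cd8a* and *Aif1* among the markers at 0 in all mice. Of 5 Schwann cell and nerve root markers, 1 was footprinted in naïve mice (0 to 100 nt) and 4 in mild EAE (127 to 856 nt), with 0 to 1023 nt in severe EAE and *Ncmap* at 0 in all mice. The part of these cells in the members' values was not tested.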

How the data were processed

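The authors assembled the trimmed reads (fastp) of each immunoprecipitation into contigs, aligned them to GRCm38 with minimap2 (version 2.17 in the submitters' processing notes), subtracted sites of the matched input and pooled IgG with bedtools and merged overlapping sites without strand. The deposited lists hold chromosome, start and end alone, with no other value such as a count or score. Genes, exons and transcripts were those of GENCODE release M21, and sequences were read from the RefSeq copy of GRCm38. Footprints were classed by their midpoint. Mice were the replicates (3 naïve, 3 mild EAE, 4 severe EAE). Every gene with a footprint had its group means of covered nt compared in an exact permutation test (two-sided), with Benjamini-Hochberg adjustment over all 13965 of them. A stretch was shared where at least 2 mice of a group overlapped by at least 2 nt. The code was tested on simulated data.

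Members and gene lists were chosen with earlier results of these data known. The genes named beyond the 10 were the 2 with the most covered nt in each related list and any whose naïve and EAE groups did not overlap. Markers at 0, the *Nfasc* exon blocks, the exon and intron densities, the intronic shares without EAE_5 and the restriction to genes footprinted in all 3 naïve mice were chosen after values were seen. Alternatives were other scales, length limits, single-gene footprints and each mouse left out. Inputs and IgG controls were not analysed here. Python 3.11.15, NumPy 2.4.6, pysam 0.24.0 and samtools 1.23.1 were used.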

Additional observations from a re-analysis of the deposited data

Results flagged for a closer look

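Among the 4 severe EAE mice, EAE_5 lay far from the other 3 in 9 of the 10 genes, all except *Nrcam*, and in their sum. The flag was the gap to the nearest mouse relative to the range, at a limit that chance passes in about 1 of 20 groups. In *L1cam*, *Chl1*, *Ncam1*, *Ncam2*, *Cntn1*, *Cntn2* and *Cntnap1* the other 3 mice had 0 nt. Any footprint of EAE_5 was thus flagged in these genes whatever its length, and that rate does not hold for them. It had 7969 covered nt in *Nfasc*, 275 in *L1cam*, 644 in *Chl1*, 4236 in *Ncam1*, 1866 in *Ncam2*, 2933 in *Cntn1*, 1567 in *Cntn2*, 719 in *Cntnap1* and 7681 in *Cntnap2*, and 28457 nt in the 10 genes together. The 10 values come from 1 mouse and its list of 31870 footprints and are not independent of each other.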

How the results depend on the processing

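Of the comparisons of the 10 genes, none passed the test as reported, so a sign that turned is that of a difference that did not pass, and the cause was not tested. Per 100000 covered nt of a mouse, the differences turned positive in EAE for *Nrcam* (20.6) and *Nfasc* (33.5), in severe EAE for *Nrcam* (23.5) and *Nfasc* (46.4), and in mild EAE for *Nfasc* (16.2) and *L1cam* (0.673). By number of footprints they turned in EAE for *Chl1* (0.810) and *Cntn1* (0.238), in severe EAE for *Chl1* (0.667), and in mild EAE for *Nrcam* (−1) and *Cntn1* (1.33). Per 1000000 mapped unique reads they turned in mild EAE for *Nrcam* (−33.2) and *Chl1* (−27.1), and on the log2(covered nt + 10) scale for *Nrcam* (−1.27). With 1 mouse left out at a time, the EAE differences ran from −421 to 67.9 nt for *Nrcam*, −1127 to 309 for *Nfasc*, −120 to 6.71 for *L1cam*, −194 to 109.8 for *Chl1*, −511 to 203 for *Cntn1* and −239 to 77.2 for *Cntnap1*. The severe EAE differences ran from −2141 to 516 for *Nfasc*, −281 to 42.5 for *Chl1* and −875 to 205 for *Cntn1*. The mild EAE differences ran from −245 to 399 for *Nrcam*, −717 to 377 for *Nfasc*, −109.7 to 17.3 for *L1cam*, −110.3 to 199.5 for *Chl1*, −646 to 201 for *Cntn1* and −374 to 53 for *Cntn2*. Unadjusted exact permutation p fell under 0.05 per 1000000 reads in EAE for *Ncam1*, *Ncam2*, *Cntn2* and *Cntnap2* and in severe EAE for *Nrcam*. The share of all genes with such a p on that scale was not counted, so this is no result about the members. Of the 10 immunoprecipitations, Naïve_2 had the fewest mapped unique reads in the study's list, which raises its values on that scale. Genes of the whole table with every naïve mouse above every EAE mouse numbered 134 as reported, 224 per 100000 covered nt, 566 per 1000000 reads, 82 by number of footprints, and 134 to 430 with 1 mouse left out. Those with every EAE mouse above numbered 6 per 100000 covered nt, 0 over footprints in 1 gene, and 1 to 10 with 1 mouse left out. Against severe EAE the counts with naïve mice above were 669 and 1045 on these 2 scales and 319 to 2067 with 1 mouse left out (2067 without EAE_5), and with naïve mice below 7, 0 over footprints in 1 gene, and 1 to 17. Against mild EAE they were 781 per 1000000 reads and 400 to 902 with naïve mice above, and 547 per 100000 covered nt, 211 per 1000000 reads and 458 to 1296 with naïve mice below. Stretches of the members shared in a group numbered 10 (without Naïve_1) to 21 in naïve mice, 11 (without EAE_7) to 22 in mild EAE and 0 (without EAE_1 or EAE_5) to 4 in severe EAE with 1 mouse left out, and 0 in at least 3 of the 4 severe mice. The mouse numbers 1 to 3 that naïve and EAE mice share belong to different animals. With them as a replicate block the differences ran from −90 nt (*L1cam*) to −6037 nt (*Cntnap2*, p = 0.25 in an exact sign-flip test of the 3 pairs). That is the smallest p that 3 pairs can give, so no gene could pass that test. The lists give no reads per footprint, so what depth limits could not be measured.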
